A study of Rattus norvegicus with 34 samples.

Results

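Left ventricular tissue of rats with a large myocardial infarct (L-MI) was compared with that of sham-operated rats, gene by gene over the whole array. The comparison used 5 L-MI arrays and 6 sham arrays, taken by their labels out of the 34 arrays of the series. The other arrays were 6 from left ventricles with a small infarct (S-MI), 6 with a moderate infarct (M-MI) and 11 from blood mononuclear cells. The S-MI and M-MI arrays entered the fit, and the blood arrays were not used here. All animals were male Wistar rats whose left coronary artery had been ligated near its origin, or that had the same operation without ligation, and tissue was taken 2 months later. Each array held RNA of 1 rat, and the groups were formed by infarct size. From sham rats the whole left ventricle was taken, but from infarcted rats only the muscle that looked unaffected, so that infarction and the part of the wall sampled cannot be told apart. L-MI replicate 1 carries a large infarct in its title and infarct size, whereas its free-text description speaks of compensated injury, and counts without it are given below.

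Loss of a large part of the left ventricular wall leaves the surviving muscle with more load. Over weeks the chamber dilates, muscle cells enlarge and return to parts of a fetal programme, fibroblasts lay down collagen between the cells, and macrophages settle in the wall. Heart muscle normally draws most of its energy from burning long-chain fatty acids in mitochondria, under the control of PPAR and ERR nuclear receptors and their coactivator PGC-1, and the failing heart is known for losing part of this capacity.

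Of 29214 transcript clusters, the probe groups that the array counts as one transcript, 941 differed between L-MI and sham (3.22%), with limma's adjusted p no higher than 0.05 and a difference of 1.3-fold or more. In this fit 608 were higher (2.08%) and 333 lower (1.14%) in L-MI. With each array centred on its median the split became 524 higher and 431 lower, while the median over all clusters moved from -0.0059 to -0.0353 on the log2 scale. The rises were larger than the falls. At least 2-fold rises were seen in 61 clusters and at least 2-fold falls in 6, and 589 of the calls lay under 1.5-fold. All 5 L-MI arrays lay above or all below the 6 sham arrays in 2035 clusters (6.97%), 905 of them above (3.1%) and 1130 below (3.87%). Without L-MI replicate 1 there were 851 calls. All values below are log2 signals, differences are L-MI minus sham with the standard error (SE) of the fit (n = 5 and 6), and a gene is said to rise or fall only where it passed both thresholds. The SE pools the spread of all 23 left ventricular arrays, and so does not show where L-MI varied more than the other groups. The median standard deviation was 0.1219 in sham and 0.1228 in L-MI, but for Spp1 it was 0.282 and 1.136. In tissue RNA, fewer cells of a type and less RNA per cell cannot be told apart.

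**Figure D1:**
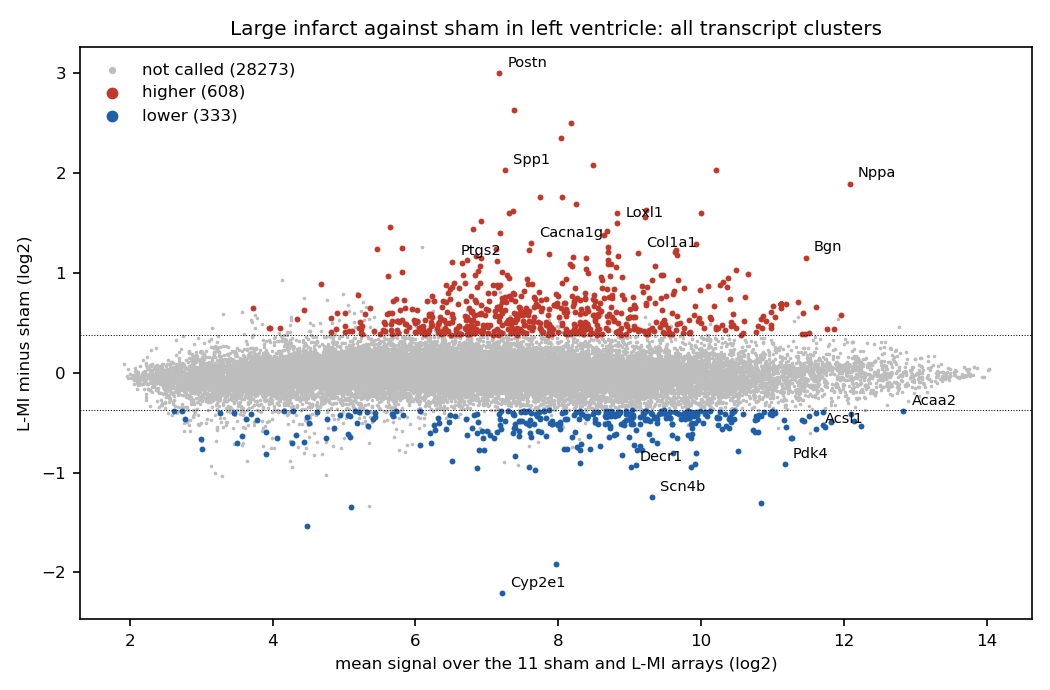
Difference of L-MI from sham (log2) against mean signal over the 11 arrays (log2), 1 point per transcript cluster, with calls in red and blue, dotted lines at a fold of 1.3 and 14 genes named. Rises reach 3.0 (Postn), whereas most falls lie between the dotted line and -1, and the widest, Cyp2e1, is at -2.21.

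Matrix genes formed the largest block of rises among the lists. All lists were chosen with earlier results of these data known, so their shares and ranks are descriptions. Across 6 lists of matrix genes, 52 of 150 measured genes rose (34.7%) and 2 fell, and 19 of the rises were at least 2-fold. The median difference was 0.253, against -0.0059 over all clusters.

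Among the matricellular proteins, which sit in the matrix and signal to cells rather than bear load, 11 of 21 rose and 1 fell. Periostin (Postn), made by activated fibroblasts, had the largest rise of any cluster. Its sham values ran from 5.57 to 6.08 (median 5.83), and the L-MI replicates 1 to 5 read 9.31, 7.8, 9.1, 8.43 and 9.41. Every L-MI array lay clear of sham, with replicate 2 lowest. The difference was 3.0 ± 0.23 (adjusted p = 1.05e-07). Osteopontin (Spp1), a secreted phosphoprotein of macrophages and bone, was at 5.99 to 6.78 (median 6.32) in sham and at 7.83, 8.34, 7.46, 7.85 and 10.31 in L-MI, a difference of 2.03 ± 0.32 (adjusted p = 0.000188). Replicate 5 stood well above the other 4, which were themselves above all sham arrays. Thrombospondin 1 (Thbs1), which releases TGF-beta from its latent form, rose from 7.81 to 8.31 (median 8.03) in sham to 9.41, 8.92, 9.11, 10.05 and 9.8 in L-MI (1.42 ± 0.22, adjusted p = 0.000189), here with replicate 4 highest. Matrix Gla protein (Mgp), an inhibitor of calcification, rose evenly, from 10.93 to 11.18 (median 11.01) in sham to 11.93, 11.62, 11.69, 11.68 and 11.77 in L-MI (0.71 ± 0.07, adjusted p = 8.1e-07). All 12 calls of this list held when any 1 of the 11 arrays was left out.

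The connective tissue growth factor Ccn2, a target of load and of TGF-beta, rose by 1.63 ± 0.24. The 250 bases before its start are shown because the letters CATTCC, the core read by the load-sensitive TEAD factors, occur there 3 times, more than in any other matrix gene that rose and has a window. For Postn the same stretch is shown as the largest rise. It holds TATAAA, the TATA box letters, 44 bases before the start. The stretch of Ccn2 holds TATAAA as well, printed there in lower case because only CATTCC is capitalised. Sequences are from RefSeq on build GRCr8, 5′ to 3′ on the strand of the gene, with the matches on either strand in capitals.
Postn, chr2:140677811-140678060, plus strand: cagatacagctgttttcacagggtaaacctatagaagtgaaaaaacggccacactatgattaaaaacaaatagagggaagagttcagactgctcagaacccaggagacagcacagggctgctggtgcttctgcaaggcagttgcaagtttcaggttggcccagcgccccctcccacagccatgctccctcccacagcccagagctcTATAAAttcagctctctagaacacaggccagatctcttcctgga
Ccn2, chr1:22624615-22624864, minus strand: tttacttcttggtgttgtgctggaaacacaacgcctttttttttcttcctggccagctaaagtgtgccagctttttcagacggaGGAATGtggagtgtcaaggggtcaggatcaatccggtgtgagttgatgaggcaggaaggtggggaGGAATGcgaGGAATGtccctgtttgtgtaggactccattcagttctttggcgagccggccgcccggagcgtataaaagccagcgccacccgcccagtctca
In Ccn2 the matches lie 166, 101 and 92 bases before the start. CATTCC was found in 22.6% of the 31 matrix genes that rose and have a window, in 15.8% of the 329 named genes that rose, in 9.09% of the 176 that fell, and in 10.4% of 11968 measured genes. TATAAA was in 22.6%, 12.2%, 6.25% and 11.3% of the same sets. These shares are descriptions, and a match is not a binding site.

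All 24 measured collagens had positive differences, and 6 rose. The chains of fibrillar collagen I and III rose together. Col1a1 was tight in sham, at 8.48 to 8.63 (median 8.57), and read 9.64, 9.47, 9.16, 9.66 and 10.9 in L-MI, so that the smallest L-MI value was well above the largest sham value and replicate 5 exceeded the rest. Its difference was 1.2 ± 0.18 (adjusted p = 0.000138), that of Col1a2 0.66 ± 0.12 and that of Col3a1 0.57 ± 0.09. Col12a1, which coats collagen fibrils, rose further, from 6.0 to 6.42 (median 6.23) in sham to 7.68, 7.3, 7.45, 7.58 and 8.74 in L-MI (1.52 ± 0.16, adjusted p = 3.74e-06). Replicate 5 was again highest. The collagen V chains Col5a1 and Col5a2, which start fibrils, were higher by 0.35 ± 0.05 and 0.35 ± 0.07 with adjusted p of 5.48e-05 and 0.0013, short of the fold of 1.3, and basement membrane Col4a1 by 0.24 ± 0.06.

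Enzymes that process and cross-link collagen moved with it: 8 of 26 rose, none fell, and all 8 calls held with any array left out. Lysyl oxidase-like 1 (Loxl1), which cross-links elastin and collagen, was at 7.85 to 8.45 (median 8.12) in sham and 10.1, 9.19, 9.58, 9.82 and 9.52 in L-MI, a difference of 1.5 ± 0.15 (adjusted p = 2.19e-06). Lysyl hydroxylase 2 (Plod2), which prepares collagen for stable cross-links, rose from 7.81 to 8.04 (median 7.9) in sham to 9.07, 8.7, 8.97, 8.66 and 9.34 in L-MI (1.04 ± 0.11, adjusted p = 3.74e-06). In both genes replicate 2 or 4 was lowest and no L-MI array reached the sham range. Lox itself rose by 0.76 ± 0.11, Loxl2 by 0.73 ± 0.08, and the procollagen C-proteinase Bmp1 and its enhancer Pcolce by 0.43 ± 0.08 and 0.60 ± 0.08.

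Of 24 genes of elastic fibres and basement membrane, 11 rose. Fibrillin 1 (Fbn1), the scaffold of microfibrils, went from 8.11 to 8.53 (median 8.28) in sham to 9.83, 9.01, 9.32, 9.59 and 9.63 in L-MI, and elastin (Eln) from 7.4 to 7.69 (median 7.64) in sham to 8.32, 7.91, 7.96, 8.19 and 8.05 in L-MI. The groups did not overlap for either gene. The differences were 1.17 ± 0.14 (adjusted p = 1.11e-05) and 0.48 ± 0.08 (adjusted p = 0.000461), with fibulin 2 (Fbln2) at 1.06 ± 0.12, emilin 1 (Emilin1) at 0.60 ± 0.10 and microfibril protein Mfap4 at 0.58 ± 0.09.

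Small leucine-rich proteoglycans and the versican family had the largest share of rises of any of the 37 gene lists, 12 of 22, although 5 of these calls were lost when at least 1 array was left out and 6 remained without both L-MI replicates 1 and 5. Versican (Vcan), a large proteoglycan of provisional matrix, was at 7.67 to 8.0 (median 7.88) in sham and 9.37, 8.59, 8.79, 9.11 and 9.19 in L-MI (1.15 ± 0.15, adjusted p = 3.51e-05). Fibromodulin (Fmod), which spaces collagen fibrils, rose from 5.97 to 6.54 (median 6.22) in sham to 7.54, 7.2, 6.94, 6.83 and 8.15 in L-MI (1.12 ± 0.17, adjusted p = 0.000138). All L-MI arrays lay above sham in both, with replicates 1 and 5 highest. Asporin (Aspn) rose by 0.86 ± 0.10, Prelp by 0.67 ± 0.09, lubricin (Prg4) by 0.78 ± 0.18 and lumican (Lum) by 0.45 ± 0.09, whereas decorin (Dcn), the bulk proteoglycan of this family, was higher by only 0.16 ± 0.03. The hyaluronan synthase Has2 overlapped sham in replicate 2 (0.47 ± 0.12, adjusted p = 0.0131). Lum and Has2 lost their calls without L-MI replicate 1, at 0.37 and 0.40.

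**Figure D2:**
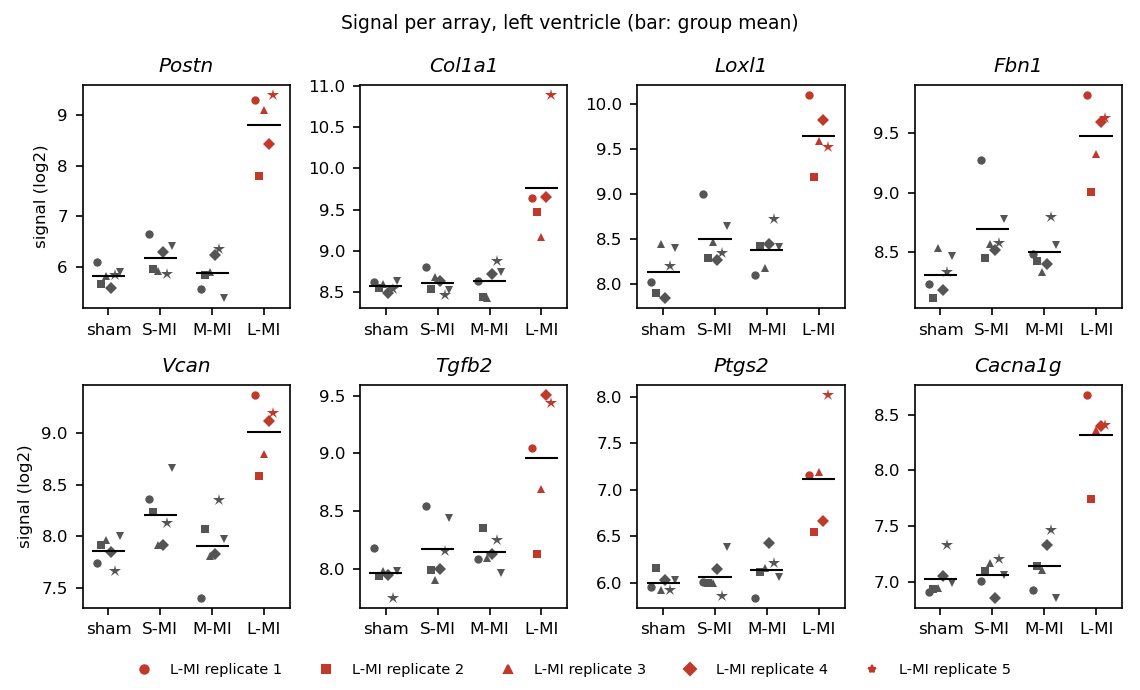
Log2 signal of 8 genes in each left ventricular array, with group means as bars and the replicate number given by the marker. L-MI arrays (red) lie above sham in 7 genes, while in Tgfb2 replicate 2, at 8.12, lies below the highest sham array, at 8.18.

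Of 34 metalloproteinases and their inhibitors, 4 rose and 1 fell. Timp1, an inhibitor, rose from 8.87 to 9.31 (median 9.07) in sham to 10.34, 9.98, 10.25, 10.52 and 10.53 in L-MI (1.23 ± 0.14, adjusted p = 6.54e-06), and Timp2 rose by 0.56 ± 0.07. Timp4, the form typical of heart muscle, fell by 0.51 (SE 0.15, adjusted p = 0.0341), with replicate 2 inside the sham range, and this call was lost when any of 8 arrays was left out, at -0.42 to -0.52. The gelatinase Mmp2 rose by 0.48 ± 0.07 and the membrane-bound Mmp14 by 0.42 ± 0.11, the latter not without L-MI replicate 5 (0.34) or sham replicate 2 (0.37). Stromelysin 1 (Mmp3) stayed at 4.72 to 4.99 (median 4.83) in sham and 4.8, 4.88, 4.67, 4.8 and 4.6 in L-MI (adjusted p = 0.568).

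Genes of activated fibroblasts and smooth muscle rose in 11 of 27 cases and fell in none. S100a4 was narrow in both groups, at 6.62 to 6.91 (median 6.74) and at 7.72, 7.66, 7.9, 7.62 and 7.92, a difference of 1.01 ± 0.08 (adjusted p = 1.05e-07) and one of the smallest adjusted p in the table. Pi16, a peptidase inhibitor of resident fibroblasts, rose by 1.29 ± 0.14. Of the contractile genes of myofibroblasts, transgelin (Tagln) rose by 0.69 ± 0.12 (adjusted p = 0.000428), while smooth muscle actin (Acta2) was higher by 0.30 ± 0.06 (adjusted p = 0.00162) and did not reach the fold. In both the L-MI arrays were above all sham arrays. Fap, a protease of activated fibroblasts, differed by 0.39 ± 0.11 with replicates 3 and 4 inside the sham range, and was not called without sham replicate 2 or 5 or L-MI replicate 1 or 5 (0.32 to 0.37).

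In the TGF-beta and BMP list 8 of 47 rose and none fell, and without L-MI replicate 2 there were 14. Tgfb2 rose the most: sham was at 7.75 to 8.18 (median 7.96) and L-MI at 9.05, 8.12, 8.69, 9.51 and 9.44 (1.0 ± 0.18, adjusted p = 0.000543). Replicate 2 lay within the sham range and replicates 4 and 5 more than 1 unit above it. Tgfb1 differed by 0.40 ± 0.07, just past the fold, and was not called without sham replicate 5 or L-MI replicate 1 or 5 (0.35 to 0.36). Tgfb3 was higher by 0.35 ± 0.10. Activin A, encoded by Inhba, rose from 6.79 to 7.16 (median 7.05) in sham to 7.99, 7.35, 7.56, 7.8 and 8.01 in L-MI (0.74 ± 0.11, adjusted p = 0.00015), and its binding inhibitor Fstl3 rose as well (0.71 ± 0.14). The stress cytokine Gdf15 differed by 0.43 ± 0.10 with 1 overlap and was not called without L-MI replicate 5 (0.37).

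Of 44 Wnt pathway genes the 6 that rose were 5 secreted proteins of the sFRP and Dickkopf families (Sfrp1, Sfrp2, Sfrp4, Frzb and Dkk3) and the receptor Fzd2. Dkk3 was at 9.56 to 10.25 (median 9.84) in sham and at 10.84, 10.61, 10.77, 10.75 and 10.8 in L-MI (0.88 ± 0.10, adjusted p = 6.54e-06), nearly level across the 5 rats. Sfrp4 rose by 0.48 ± 0.11 and Fzd2 by 0.41 ± 0.08. Without L-MI replicate 5, Sfrp4 was at 0.36 and Frzb at 0.51, both uncalled, and Fzd2 was uncalled without sham replicate 5 (0.38) or L-MI replicate 4 (0.37). In the growth factor and IGF list 6 of 53 rose. Fgf7, a fibroblast-made growth factor for epithelium, varied widely in sham, at 5.64 to 7.17 (median 6.04), and read 7.2, 7.84, 8.39, 7.31 and 7.23 in L-MI (1.44 ± 0.33, adjusted p = 0.00589). Its lowest L-MI value lay just above the highest sham value. The receptor Fgfr1 rose by 0.49 ± 0.06 (adjusted p = 2.63e-05), the lymphatic growth factor Vegfd by 0.81 ± 0.14 (adjusted p = 0.000384) and Igfbp6 by 0.79 ± 0.11. The main angiogenic factor Vegfa was at -0.14 ± 0.07 (adjusted p = 0.216) and Igf1 at 0.15 ± 0.10. Of 30 integrins and focal adhesion genes 4 rose, among them the collagen receptor subunit Itga11 (0.51 ± 0.09) and zyxin (Zyx, 0.49 ± 0.08), a focal adhesion protein that responds to stretch.

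**Figure D3:**
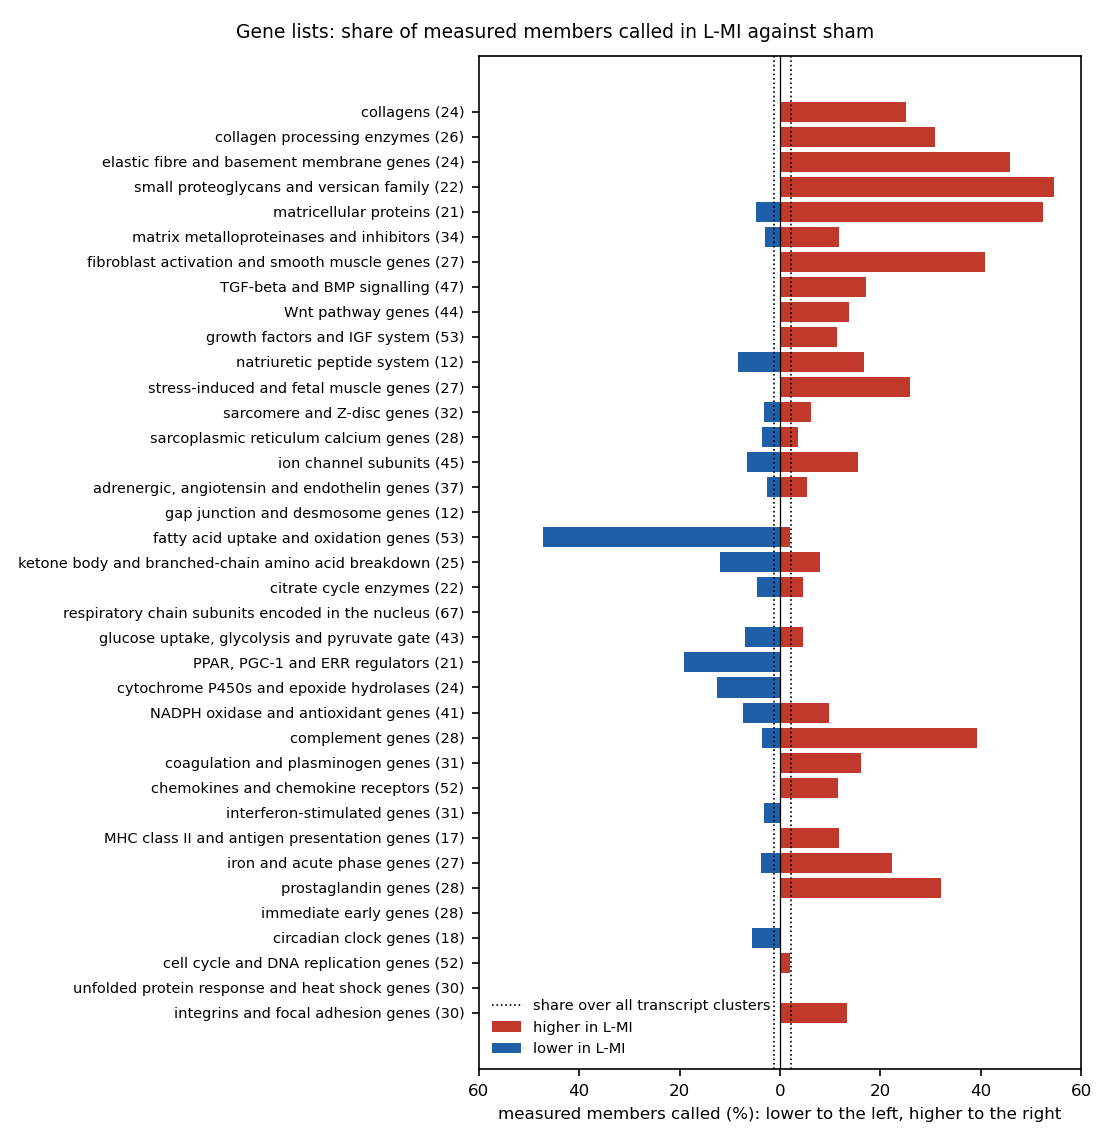
Percent of the measured members of each of 37 gene lists called lower (left, blue) or higher (right, red) in L-MI than in sham, with the number measured in brackets and dotted lines at the share over all clusters, 1.14% lower and 2.08% higher. Matrix, complement and prostaglandin lists extend to the right and fatty acid oxidation alone extends past 40% to the left. The share over all clusters takes in dim clusters, which were called less often than bright ones.

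Among immune genes, macrophage markers had the highest share of rises. Of 18 macrophage markers 16 rose, with a median of 0.767. The growth factor receptor Csf1r, on which macrophages depend, went from 8.58 to 8.85 (median 8.73) in sham to 9.63, 9.03, 9.69, 9.47 and 9.5 in L-MI (0.75 ± 0.09, adjusted p = 1.64e-05). The groups were separate, with replicate 2 nearest to sham. Of 12 neutrophil markers, 8 B cell markers, 9 mast cell markers and 4 platelet markers none was called. Of 15 T cell markers 2 rose, Cd28 (0.45 ± 0.10) and Cd4 (0.76 ± 0.10), and rat macrophages carry Cd4 as well. The natural killer receptor Klrb1a fell by 0.59 (SE 0.14, adjusted p = 0.00967). Of 6 lymphatic endothelial markers 2 rose, Lyve1, which cardiac macrophages also carry (0.98 ± 0.14), and Reln (0.39 ± 0.08), whereas 1 of 14 endothelial markers, Gpihbp1, fell and none rose. Of these 14, 2 had positive differences, with a median of -0.122. The mean log2 signal of the endothelial list ran from 9.74 to 9.89 in sham and from 9.569 to 9.712 in L-MI. Cd28 lost its call without L-MI replicate 3 (0.35) and Reln without any of 4 arrays, at 0.35 to 0.37.

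Complement genes rose in 11 of 28 cases and fell in 1. The chains of C1q, which starts the classical pathway, rose together, C1qb from 8.84 to 8.94 (median 8.9) in sham to 9.92, 9.37, 10.24, 9.73 and 9.86 in L-MI (0.93 ± 0.13, adjusted p = 5.8e-05). The central component C3 was at 6.04 to 6.47 (median 6.3) in sham and at 6.97, 6.48, 7.28, 6.98 and 7.18 in L-MI (0.69 ± 0.14, adjusted p = 0.00148), where replicate 2 only just cleared the highest sham array. The anaphylatoxin receptors C3ar1 and C5ar1 rose by 0.94 ± 0.13 and 0.72 ± 0.12. Inhibitors of complement did not move as one: Serping1, which blocks C1, rose by 0.55 ± 0.08 and Cd55, which breaks up convertases, by 0.94 ± 0.13, while Cd46, a cofactor for cleavage, fell by 0.43 (SE 0.06, adjusted p = 0.000103), a call lost without L-MI replicate 4 (-0.38).

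Chemokine genes rose in 6 of 52 cases. Ccl2, which draws monocytes, was at 8.64 to 9.17 (median 9.13) in sham and 10.43, 9.22, 9.76, 10.48 and 9.93 in L-MI (0.98 ± 0.27, adjusted p = 0.0215). Replicate 2 lay just above the sham range, and the call was lost without sham replicate 4 or L-MI replicate 1 or 4 (0.85 to 0.91). The fractalkine receptor Cx3cr1 rose by 0.88 ± 0.14 and the scavenging receptor Ackr2 by 0.89 ± 0.12. Of 17 antigen presentation genes 2 rose, RT1-DMa (0.59 ± 0.10) and cathepsin S (Ctss, 0.84 ± 0.10). Of 31 interferon-stimulated genes none rose and 1 fell, and among 31 coagulation and plasminogen genes 5 rose, including the protease inhibitors Serpine2 (0.81 ± 0.13) and Serpinf1 (0.90 ± 0.09).

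Genes of prostaglandin and leukotriene synthesis rose in 9 of 28 cases and fell in none. Cyclooxygenase 2 (Ptgs2), the inducible first enzyme, was at 5.92 to 6.16 (median 5.99) in sham and 7.16, 6.54, 7.19, 6.66 and 8.02 in L-MI (1.11 ± 0.17, adjusted p = 0.00015). All 5 arrays were above sham and replicate 5 was highest. The constitutive Ptgs1 rose by 0.45 ± 0.10, at 0.38 without L-MI replicate 5 and then short of the fold. Downstream, prostacyclin synthase (Ptgis, 0.60 ± 0.11, in 1 of its 2 clusters), the prostaglandin D synthase Hpgds (0.72 ± 0.15) and thromboxane synthase (Tbxas1, 0.43 ± 0.11) rose, while the prostaglandin E synthase Ptges was at 0.03 ± 0.09. The prostaglandin F receptor Ptgfr, linked to hypertrophy, rose from 8.66 to 9.6 (median 9.11) in sham to 10.17, 10.41, 10.31, 10.42 and 10.21 in L-MI (1.17 ± 0.22, adjusted p = 0.000971), level across the 5 rats. On the leukotriene side Alox5 rose by 0.62 ± 0.11, its activating protein Alox5ap by 0.66 ± 0.08 and the cysteinyl leukotriene synthase Ltc4s by 0.54 ± 0.10. Myeloid cells express these 3 genes, and the part of macrophages in their rise was not tested.

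Iron and acute phase genes rose in 6 of 27 cases. Ceruloplasmin (Cp), which oxidises iron for export, went from 7.27 to 7.42 (median 7.31) in sham to 8.78, 8.3, 8.3, 8.45 and 8.73 in L-MI (1.19 ± 0.10, adjusted p = 1.96e-07) and transferrin (Tf) from 8.81 to 9.06 (median 8.93) in sham to 9.75, 9.26, 9.77, 9.6 and 9.64 in L-MI (0.68 ± 0.10, adjusted p = 0.000136). Neither overlapped sham. Hepcidin (Hamp), the hormone that blocks iron export, had the largest change of the list, from 8.91 to 9.76 (median 9.26) in sham to 11.44, 10.88, 11.68, 11.46 and 11.16 in L-MI (2.03 ± 0.34, adjusted p = 0.000328). All L-MI arrays lay above sham. Hemojuvelin (Hjv), a coreceptor upstream of hepcidin, fell by 0.40 (SE 0.06, adjusted p = 8.82e-05), and -0.36 without L-MI replicate 4 did not reach the fold. Its ligand Bmp6 rose (0.47 ± 0.10), and the transferrin receptor Tfrc was at -0.27 ± 0.25 (adjusted p = 0.609).

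Of 12 natriuretic peptide genes 2 rose and 1 fell. Atrial natriuretic peptide (Nppa) was at 10.71 to 11.78 (median 11.23) in sham and at 13.02, 12.62, 13.35, 13.33 and 13.26 in L-MI (1.89 ± 0.29, adjusted p = 0.000135). Brain natriuretic peptide (Nppb) was also above sham in all 5 rats, 12.9, 12.93, 13.15, 12.99 and 13.08 against 12.12 to 12.77 (median 12.61), but its difference of 0.45 ± 0.27 did not pass (adjusted p = 0.361). That SE pools the spread of all 23 left ventricular arrays, S-MI and M-MI included. In the fit of the 11 sham and L-MI arrays alone, 3 genes of the list rose. Corin, the protease that activates these hormones, rose by 0.47 ± 0.10 and neprilysin (Mme), which degrades them, fell by 0.52 (SE 0.12, adjusted p = 0.00804), each with replicates 2 and 5 inside the sham range. The clearance receptor Npr3 was at 0.57 ± 0.20 (adjusted p = 0.0856).

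Of 27 stress-induced and fetal muscle genes 7 rose, and all 7 calls held with any array left out. The titin-binding Ankrd23 rose from 7.85 to 8.27 (median 8.15) in sham to 9.7, 9.07, 9.7, 10.14 and 9.88 in L-MI (1.6 ± 0.24, adjusted p = 0.000105), while its relative Ankrd1, near the top of the signal range in both groups, was at 0.17 ± 0.06 (adjusted p = 0.0751). The fast skeletal light chain Myl1 rose by 1.38 ± 0.22, the actin regulator Enah by 0.54 ± 0.11 and the ubiquitin hydrolase Uchl1 by 0.86 ± 0.12. Skeletal actin (Acta1) was high in replicates 3, 4 and 5 only, 12.45, 12.23, 13.14, 13.03 and 12.9 against 12.16 to 12.77 (median 12.43) in sham (adjusted p = 0.292). Of the myosin heavy chains, Myh6 was below sham in all 5 rats, 12.79, 12.8, 12.89, 12.48 and 12.72 against 12.95 to 13.08 (median 13.01) (-0.29 ± 0.06, adjusted p = 0.00472, fold under 1.3), and Myh7 was at 0.06 ± 0.06 (adjusted p = 0.67).

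Of 32 sarcomere genes 2 rose, Myot (1.02 ± 0.19) and Pdlim5 (0.50 ± 0.06), both of the Z-disc, and 1 fell. Of 28 calcium genes of the sarcoplasmic reticulum 1 rose and 1 fell. The calcium pump Atp2a2 (-0.04 ± 0.03, adjusted p = 0.556) and phospholamban (Pln, -0.07 ± 0.03) were not called, the release channel Ryr2 was lower (-0.13 ± 0.04, adjusted p = 0.0321) and junctophilin (Jph2), which holds the channel at the T-tubule, was lower as well (-0.24 ± 0.06, adjusted p = 0.00586). Of 12 gap junction and desmosome genes none was called.

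Ion channel subunits split, 7 of 45 higher and 3 lower. The T-type calcium channel Cacna1g, a fetal and pacemaker channel, rose from 6.9 to 7.32 (median 6.96) in sham to 8.68, 7.75, 8.37, 8.4 and 8.41 in L-MI (1.3 ± 0.13, adjusted p = 1.23e-06). The groups were far apart, and replicate 2 was lowest. Its relative Cacna1h differed by 0.50 ± 0.15 with overlap, a call lost when any of 9 arrays was left out (0.43 to 0.54). The sodium channel beta subunit Scn3b rose by 0.84 ± 0.13 (adjusted p = 0.000163), the stretch-linked Trpc6 by 0.52 ± 0.10 and Kcne4 by 0.45 ± 0.09. Of the falls, the sodium channel beta subunit Scn4b had the largest, from 9.6 to 10.09 (median 9.86) in sham to 9.2, 8.97, 8.32, 7.89 and 8.74 in L-MI (-1.25 ± 0.17, adjusted p = 4.92e-05), with all L-MI arrays below sham. The background potassium channel Kcnk2 fell from 7.49 to 7.71 (median 7.65) in sham to 7.21, 7.33, 7.04, 7.08 and 6.92 in L-MI (-0.52 ± 0.10, adjusted p = 0.00158). Kcnd2, of the transient outward current, was at 8.13, 7.79, 7.64, 7.43 and 8.62 in L-MI against 7.94 to 9.05 (median 8.65) in sham (-0.67 ± 0.23, adjusted p = 0.0677) and was not called. Among 37 adrenergic, angiotensin and endothelin genes 2 rose and 1 fell, apelin (Apln), from 8.38 to 8.59 (median 8.45) in sham to 7.94, 7.85, 7.69, 7.19 and 7.83 in L-MI (-0.76 ± 0.13, adjusted p = 0.000351). The kinase Grk5, which silences adrenergic receptors, rose by 0.44 ± 0.11 (0.38 and uncalled without L-MI replicate 4), and the receptors Adrb1 and Agtr1a were at 0.09 ± 0.06 and -0.20 ± 0.08.

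Genes of fatty acid uptake and oxidation formed the largest block of falls among the lists. Of 53 measured genes 25 fell and 1 rose, only 4 had positive differences, and in 35 all L-MI arrays lay below all sham arrays, against 3.87% of all clusters. The median was -0.377. Falls were modest, none above 2-fold, and 7 of the 26 calls were lost when at least 1 array was left out. The transcript of the acyl-CoA synthetase Acsl1, which activates fatty acids, was at 11.84 to 11.9 (median 11.88) in sham and at 11.35, 11.55, 11.21, 11.21 and 11.22 in L-MI (-0.56 ± 0.08, adjusted p = 3.71e-05). Every L-MI array was lower, with replicate 2 nearest to sham. At the mitochondrial carnitine shuttle, Cpt2 fell by 0.41 (SE 0.05), the carrier Slc25a20 by 0.49 (SE 0.07) and Crat by 0.50 (SE 0.06), whereas the muscle form of the gate enzyme, Cpt1b, was below sham in all rats by less than the fold (-0.27 ± 0.05, adjusted p = 0.000395). Without L-MI replicate 4 Cpt2 was at -0.36 and uncalled.

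Within the spiral of beta-oxidation each step had a member that fell. Of the acyl-CoA dehydrogenases, Acadvl for the longest chains went from 11.57 to 11.65 (median 11.63) in sham to 11.14, 11.37, 11.08, 11.05 and 11.11 in L-MI (-0.47 ± 0.06, adjusted p = 2.95e-05) and Acadm for medium chains from 11.83 to 12.08 (median 11.94) in sham to 11.42, 11.64, 11.38, 11.38 and 11.28 in L-MI (-0.53 ± 0.06, adjusted p = 1.55e-05). The trifunctional subunit Hadha fell by 0.41 (SE 0.06), the dehydrogenase Hadh by 0.48 (SE 0.06) and the isomerases Eci1 and Ech1 by 0.55 (SE 0.08) and 0.54 (SE 0.09). Of these, Hadha was at -0.38 and uncalled without L-MI replicate 5. The thiolase Acaa2 fell by 0.38 (SE 0.05), a call lost when any of 4 arrays was left out, at -0.36 to -0.38. The peroxisomal Ehhadh fell by 0.75 (SE 0.14, adjusted p = 0.000927), the thioesterase Acot2 by 0.66 (SE 0.10) and the lipid droplet protein Plin5 by 0.74 (SE 0.10). Transcripts for both enzymes of malonyl-CoA, which blocks the gate, fell as well, the synthesising Acacb by 0.50 (SE 0.07) and the degrading Mlycd by 0.53 (SE 0.07). Of the uptake proteins, Fabp3 was lower (-0.33 ± 0.06, adjusted p = 0.000845), Cd36 was at -0.19 ± 0.09 (adjusted p = 0.198) and lipoprotein lipase (Lpl) at -0.08 ± 0.04.

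The uncoupling proteins went opposite ways. Ucp3, of muscle, fell from 7.76 to 8.5 (median 8.08) in sham to 7.71, 7.47, 7.44, 7.63 and 7.2 in L-MI (-0.63 ± 0.17, adjusted p = 0.0201), with L-MI replicate 1 nearest to sham, and lost its call without sham replicate 3 or 6 or L-MI replicate 5 (-0.56 to -0.57). Ucp2, which immune cells also express, rose by 0.44 ± 0.11 (adjusted p = 0.0114) with overlap and was at 0.37 without sham replicate 5. The 250 bases before the start of Ucp3 hold AGGTCA, the half-site that PPAR, ERR and other nuclear receptors read, 2 times, 155 and 50 bases before the start, the most, with Acadvl, among the fatty acid genes that fell and have a window.
Ucp3, chr1:164227660-164227909, plus strand: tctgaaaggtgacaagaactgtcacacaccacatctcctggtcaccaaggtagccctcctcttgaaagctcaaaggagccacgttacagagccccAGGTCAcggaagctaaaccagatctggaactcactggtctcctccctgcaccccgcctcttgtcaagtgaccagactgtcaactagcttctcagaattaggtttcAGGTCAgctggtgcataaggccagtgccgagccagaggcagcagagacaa
AGGTCA was found on either strand in 25% of the 20 fatty acid genes that fell and have a window, in 18.2% of the 176 named genes that fell, in 14% of the 329 that rose and in 11.8% of 11968 measured genes. CACGTG, searched as a further motif, was in 0 of those 20, 6.82%, 5.78% and 6.92%.

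**Figure D4:**
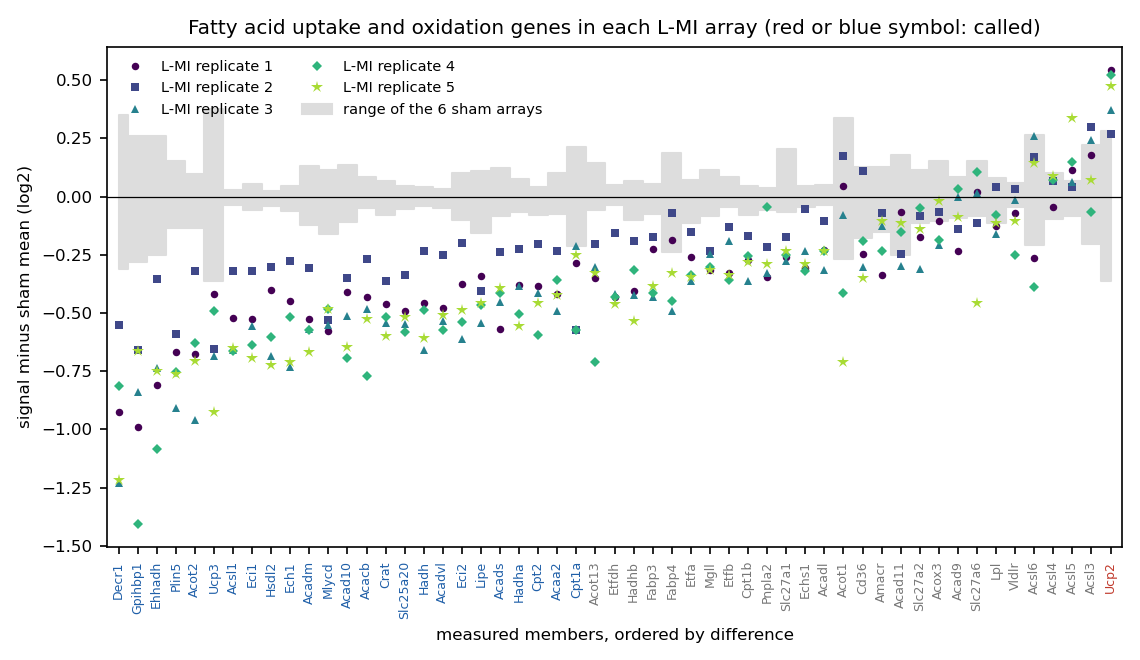
Signal of each L-MI array minus the sham mean (log2) for the 53 measured fatty acid genes, ordered by difference, with the range of the 6 sham arrays in grey and called genes in blue (lower) or red (higher). Of the 25 genes that fell, L-MI replicate 2 was nearest to sham in 21, and Ucp2 is the rise at the right end.

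Of 21 PPAR, PGC-1 and ERR genes 4 fell and none rose, with a median of -0.178, and without L-MI replicate 4 there were 2 calls. Pparg fell from 7.49 to 7.82 (median 7.65) in sham to 7.17, 7.41, 6.96, 7.18 and 7.2 in L-MI (-0.48 ± 0.09, adjusted p = 0.00138) and the coactivator Lpin1 by 0.46 (SE 0.07). Esrra was below sham in all rats, 8.26, 8.38, 8.33, 8.35 and 8.29 against 8.47 to 8.61 (median 8.57) (-0.24 ± 0.05, adjusted p = 0.00159, fold under 1.3), while Ppara, the receptor for fatty acids in heart, was at -0.18 ± 0.09 (adjusted p = 0.259) and Ppargc1a at -0.25 ± 0.10 (adjusted p = 0.137), both overlapping sham.

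For the respiratory chain, none of 67 nuclear-encoded subunits was called, and 4 had positive differences, with a median of -0.129. In 17 all L-MI arrays lay below all sham arrays, against 3.87% of all clusters. With no fold threshold 26 of the subunits were lower and none higher. Sdha of complex II was at 12.02, 12.2, 12.04, 12.06 and 11.98 against 12.24 to 12.38 (median 12.31) (-0.25 ± 0.05, adjusted p = 0.000753) and Ndufs1 of complex I at -0.19 ± 0.04 (adjusted p = 0.00757). Of 22 citrate cycle genes 1 had a positive difference, with a median of -0.2, and 1 fell, Suclg1 (-0.41 ± 0.07), which was at -0.38 and uncalled without L-MI replicate 3, while the malic enzyme Me2 rose (0.44 ± 0.08). Of the transcripts for branched-chain amino acid breakdown, those of the mitochondrial transaminase Bcat2 (-0.40 ± 0.05) and of the dehydrogenase subunit Bckdha (-0.52 ± 0.07, adjusted p = 2.09e-05) fell, and that of the cytosolic Bcat1 rose (0.62 ± 0.10). That list had 2 rises and 3 falls of 25, and 9 calls in all without L-MI replicate 2. Bcat2 was at -0.36 and uncalled without L-MI replicate 1.

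Of 43 glucose genes 2 rose and 3 fell, with a median of -0.086. Of the pyruvate dehydrogenase kinases, which close the gate from glycolysis to the citrate cycle, Pdk4 had the largest fall of the list, from 11.03 to 11.89 (median 11.75) in sham to 10.88, 10.98, 10.68, 10.43 and 10.4 in L-MI (-0.92 ± 0.20, adjusted p = 0.0041). Every L-MI array lay below sham. Pdk1 fell from 11.33 to 11.44 (median 11.38) in sham to 10.69, 11.06, 10.93, 10.86 and 10.99 in L-MI (-0.47 ± 0.06, adjusted p = 1.7e-05), and Pdk3 rose by 0.57 ± 0.10. Pfkp, a form of phosphofructokinase of non-muscle cells, rose by 0.69 ± 0.08, the insulin-regulated transporter Slc2a4 was lower (-0.20 ± 0.05, adjusted p = 0.0177), and lactate dehydrogenase Ldha was at 0.02 ± 0.06. The monocarboxylate carrier Slc16a1 rose by 0.44 ± 0.06. In the NADPH oxidase and antioxidant list 4 of 41 rose and 3 fell, and 12 were called without L-MI replicate 2. The phagocyte oxidase Cybb rose (0.87 ± 0.11) and its partner Ncf1 fell (-0.49 ± 0.09), and mitochondrial thioredoxin (Txn2) fell by 0.65 (SE 0.09). Of 24 cytochrome P450 and epoxide hydrolase genes 3 fell.

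Some genes were set apart by single rats. Of 12 cartilage and bone markers 5 were called higher, but this count went from 1 to 7 as single arrays were left out, and 1 was called with only the 11 arrays in the fit. All 12 had positive differences (median 0.362), and 1 of the 5 calls held with any array left out. Comp, the marker of smallest adjusted p, was above sham in all 5 L-MI arrays (0.97 ± 0.15, adjusted p = 0.00013). It read 7.19, 7.52, 6.73, 7.21 and 8.19 against 6.25 to 6.57 (median 6.4) in sham. Bone sialoprotein (Ibsp), a mineralisation protein, was at 4.54 to 5.13 (median 4.94) in sham and at 5.06, 6.38, 4.85, 5.85 and 8.56 in L-MI. Osteocalcin (Bglap), made by bone-forming cells, was at 5.92 to 6.43 (median 6.16) and at 6.6, 6.79, 6.28, 7.14 and 9.44. In both, replicate 5 was far above all, replicates 2 and 4 moderately above sham, and replicate 3 inside the sham range, as was replicate 1 for Ibsp. The differences were 1.24 ± 0.39 (adjusted p = 0.0449) and 1.1 ± 0.33 (adjusted p = 0.0367), and the calls were lost when any of 8 and any of 6 arrays was left out, at 1.16 to 1.31 and 1.05 to 1.12. L-MI replicate 5 was not among those arrays for either gene, and both calls held without it. The cartilage proteoglycan core Acan read 6.34, 6.94, 5.92, 6.77 and 7.7 against 5.95 to 6.23 (median 6.05), and the collagenase Mmp13, of hypertrophic cartilage and bone, read 3.76, 4.38, 3.72, 4.3 and 7.03 against 3.56 to 3.95 (median 3.65) (0.93 ± 0.36, adjusted p = 0.113, not called). Frzb, first known from cartilage, and the receptor Fgfr2 again had replicate 5 highest, then 2 and 4, at 7.28, 8.08, 7.04, 7.91 and 8.62 and 6.15, 6.48, 5.99, 6.5 and 7.39, with sham at 6.91 to 7.22 (median 7.07) and 5.79 to 6.17 (median 5.89). Fgfr2 was at 0.36 and uncalled without replicate 5. Runx2, the bone-cell regulator, was higher by less than the fold (0.36 ± 0.07, adjusted p = 0.00128), with replicate 2 inside the sham range, and osterix (Sp7) was at 0.05 ± 0.06. The gelatinase Mmp9, of neutrophils and bone-resorbing cells, read 6.03, 6.4, 5.7, 6.37 and 8.75 against 5.78 to 6.02 (median 5.85) (adjusted p = 0.141, not called).

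Among the atrial markers, L-MI replicate 1 stood apart. Atrial myosin light chain (Myl7) ran from 7.3 to 10.63 (median 8.47) in sham and read 11.91, 8.64, 8.0, 8.58 and 8.03 in L-MI, and sarcolipin (Sln), an atrial regulator of the calcium pump, read 9.67, 5.97, 5.54, 6.13 and 5.68 against 5.42 to 6.43 (median 5.78). L-MI replicate 1 was highest in both by a wide margin, and sham replicates 1 and 2, at 10.63 and 10.26, were high for Myl7. Neither gene was called (adjusted p = 0.886 and 0.408). Nppa, itself an atrial gene, was not highest in replicate 1. Of the 9 atrial markers, 2 rose, Nppa and the Wnt pathway gene Dkk3, and 1 fell. The mean log2 signal of the list ran from 8.537 to 9.067 in sham. In L-MI it was 9.819 in replicate 1 and 8.939 to 9.037, inside the sham range, in the other replicates. The part of atrial muscle in the counts was not tested, and without L-MI replicate 1 the calls numbered 851. Of 15 cardiomyocyte markers 1 was called, Nppa, and 3 had positive differences, with a median of -0.059. In 4 all L-MI arrays lay below all sham arrays, against 3.87% of all clusters.

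**Figure D5:**
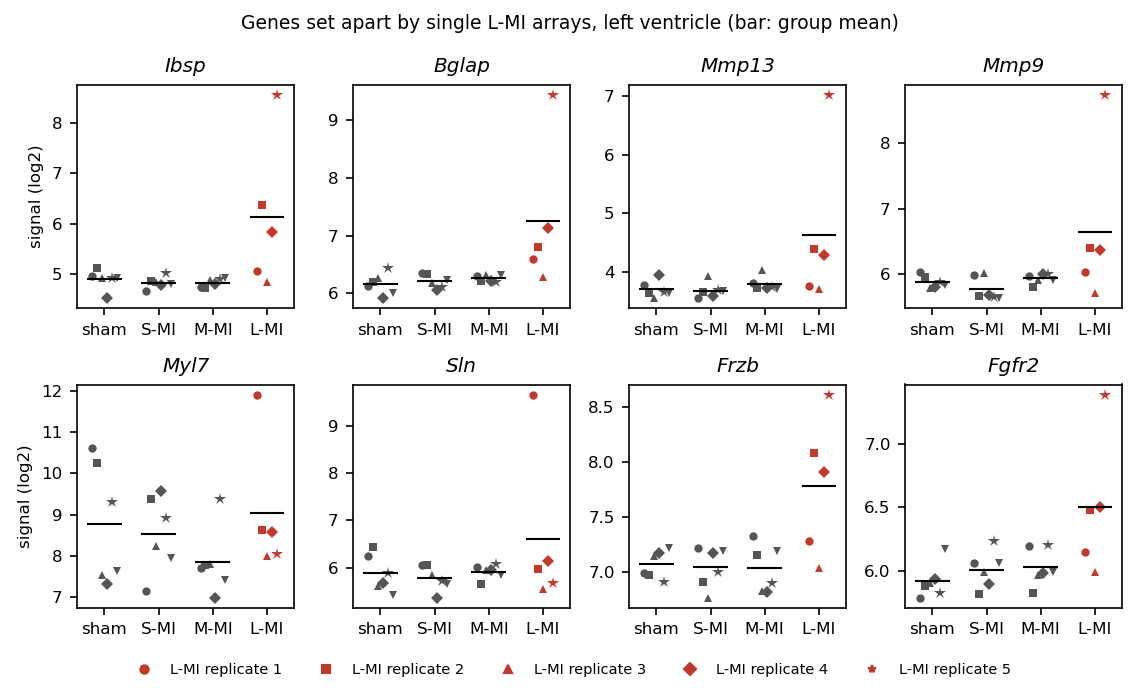
Log2 signal of 8 genes in each left ventricular array, with group means as bars and the replicate number given by the marker. L-MI replicate 5 is highest for Ibsp, Bglap, Mmp13, Mmp9, Frzb and Fgfr2, and L-MI replicate 1 for Myl7, at 11.91, and Sln, at 9.67.

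The 5 rats differed in extent over the whole set of calls. L-MI replicate 2 was nearest to the sham mean in 395 of the 608 clusters that rose (65%) and in 232 of the 333 that fell (69.7%). Its median difference from the sham mean was 0.333 over the rises, against 0.57 to 0.653 in the other 4 rats. It was nearest in 14 of 16 macrophage markers, 35 of 52 matrix genes and 21 of 25 fatty acid genes. L-MI replicate 1, the rat described as compensated, was nearest in 5.1% of the rises and 9.31% of the falls. L-MI replicate 5 was farthest in 29 of the 52 matrix genes and replicate 4 in 165 of the 333 falls (49.5%). These clusters were called with the same arrays, so the counts are a description. Without replicate 2 there were 1196 calls.

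Several genes outside the lists were among the 15 largest changes in each direction. The neural cell adhesion molecule Ncam1 spread widely in sham, at 7.75 to 9.92 (median 9.5), and read 10.81, 10.41, 11.18, 10.75 and 11.26 in L-MI (1.6 ± 0.37, adjusted p = 0.00541), clear of the highest sham array. Tceal7 rose by 1.6 ± 0.27. Among the falls, Macrod1, an ADP-ribose hydrolase of mitochondria, was at 9.81 to 10.1 (median 9.98) in sham and 9.08, 9.4, 9.1, 9.14 and 9.13 in L-MI (-0.80 ± 0.07, adjusted p = 4.76e-07), tight in both groups. Dgat2, which makes triglyceride, fell by 0.91 (SE 0.20), the ADP receptor P2ry1 by 0.83 (SE 0.16), the membrane carbonic anhydrase Car4 by 0.82 (SE 0.11) and Mecr, of mitochondrial fatty acid synthesis, by 0.77 (SE 0.18). Of the 941 calls, 271 carried no single symbol in the annotation (28.8%), among them cluster 10820434, which rose by 2.63 (SE 0.24), and cluster 10707303, which fell by 1.91 (SE 0.29).

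None of 28 immediate early genes and none of 30 unfolded protein response genes was called. Of 52 cell cycle genes 1 rose, cyclin D1 (Ccnd1, 0.50 ± 0.10), and of 18 clock genes 1 fell. Of 13 smooth muscle and pericyte markers 3 rose, of 13 fibroblast markers 7, of 11 epicardial markers 2 and of 10 Schwann cell and neuron markers 1. Of 9 adipocyte and 6 erythroid markers 1 each fell. Just inside the threshold on adjusted p lay Fcgr2b (0.0473) and Kyat3 (0.0462) and just outside it Plekhf1 (0.0515) and Art1 (0.0535). At the fold threshold Cpt1a (-0.3789) was just past and Pptc7 (-0.3783) just short.

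In the same fit L-MI differed from M-MI in 784 clusters (2.68%), 581 higher (1.99%) and 203 lower (0.695%), and from S-MI in 725 (2.48%), 459 higher (1.57%) and 266 lower (0.911%). The 3 comparisons share the L-MI arrays. For Postn the differences from M-MI and S-MI were 2.94 and 2.63, for Col1a1 1.13 and 1.16, for Loxl1 1.26 and 1.14, and for Cacna1g 1.18 and 1.26, all called. Acsl1 was at -0.50 and -0.48 in the same order. Of the fatty acid genes 21 were lower against M-MI and 20 against S-MI, and of the macrophage markers 14 were higher against each. No cluster was called in M-MI or S-MI against sham with limma, where 2053 (7.03%) and 1850 (6.33%) had an unadjusted p under 0.05. The median of the fatty acid genes was -0.039 in M-MI and -0.024 in S-MI against sham, and that of the macrophage markers 0.094 and 0.163, beside -0.377 and 0.767 in L-MI.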

How the data were processed

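RNA from rat left ventricle was hybridised by the authors to Affymetrix Rat Gene 1.0 ST arrays, and the deposited values are RMA signals made in Partek, taken here as log2, since the log base is not given in the sources used here. RMA corrects background, quantile-normalizes arrays and combines probes per transcript cluster, which evens out total signal. Groups came from the labels. The 23 left ventricular arrays were fitted in limma 3.58.1 (R 4.3.3) with 1 mean per group, and a call needed a 1.3-fold difference and a p no higher than 0.05 after Benjamini-Hochberg adjustment over 29214 clusters. The code was tested on simulated data. The annotation table gave 1 symbol to 15310 clusters, several to 323 and none to 13581. A gene with several clusters was represented by the one of highest mean signal. Members and the 37 gene lists and 18 marker lists were chosen with earlier results of these data known. Genes named were chosen from the 15 largest called changes in each direction, the members of the lists and the genes nearest to the thresholds, and not all of these are named. The number of arrays limits the precision. Promoter windows and motifs were read from RefSeq (GRCr8) for 11968 of 14506 named genes. Figures were drawn with matplotlib 3.10.9.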

Additional observations from a re-analysis of the deposited data

Results flagged for a closer look

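In 398 groups tested, a named gene's highest or lowest array was set apart 36 times, by the gap to its neighbour relative to the range of the group (Dixon's criterion, 6 sham or 5 L-MI arrays). Chance flags about 1 in 20 groups when these are independent and picked without regard to their values. The genes here were named with their values known and share the same arrays, so the 36 flags cannot be read against that rate. All values are log2 signals. L-MI replicate 1 had the highest value of its group for Myl7 (11.91) and Sln (9.67). L-MI replicate 2 had the highest value of its group for Bckdha (8.94) and Macrod1 (9.40) and the lowest value of its group for C5ar1 (8.08), Cd4 (9.47), Cybb (9.14), Fzd2 (7.85), Pfkp (8.27), Pi16 (10.11) and Tbxas1 (6.39). L-MI replicate 4 had the lowest value of its group for Atp2a2 (13.17). L-MI replicate 5 had the highest value of its group for Bglap (9.44), Col12a1 (8.74), Col1a1 (10.90), Col1a2 (10.16), Col5a2 (8.06), Mmp13 (7.03) and Mmp9 (8.75). Sham replicate 2 had the highest value of its group for Ptges (6.64) and the lowest value of its group for Mmp2 (10.06), Ncam1 (7.75) and Nppb (12.12). Sham replicate 3 had the highest value of its group for Pi16 (9.61). Sham replicate 4 had the lowest value of its group for Eln (7.4), Ibsp (4.54) and Jph2 (10.75). Sham replicate 5 had the highest value of its group for Cacna1g (7.33), Ccn2 (9.28), Fgf7 (7.17) and Trpc6 (5.55) and the lowest value of its group for Dgat2 (8.49), Igfbp6 (8.99) and P2ry1 (7.39). Sham replicate 6 had the highest value of its group for Ccnd1 (9.70) and the lowest value of its group for Pln (13.45).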

How the results depend on the processing

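No called gene named in the text changed sign under any alternative, but rises outnumbered falls in every setting except that with no fold threshold, where falls did. The 941 calls (608 higher, 333 lower) became 352 (269, 83) at a fold of at least 1.5, 2769 (1334, 1435) with no fold threshold and 74 (67, 7) with limma treat against a fold of 1.3. The 784 calls against M-MI became 260, 2196 and 49 under the same settings, the 725 against S-MI 254, 2258 and 40, and the 208 list members called 108, 386 and 45. Leaving out 1 array gave 840 to 1196 calls, 529 to 744 higher, 254 to 452 lower, 644 to 992 against M-MI, 612 to 952 against S-MI and 192 to 245 list members, lowest without L-MI replicate 4 or 5 and highest without replicate 2. Of the 941 calls, 620 held in all 11 such fits. Without both L-MI arrays 1 and 5, a setting chosen after seeing the data, 682 calls were left (417, 265), with 465 against M-MI and 475 against S-MI. Centring arrays on their medians gave 955 calls (524, 431). With the replicate number as a block there were 928 calls (615, 313), 775 against M-MI, 710 against S-MI and 206 list members, but the numbers name different rats and did not pair them (correlation of deviations -0.263 to -0.0011). A fit of the 11 sham and L-MI arrays alone gave 905 calls and has no M-MI or S-MI arrays to compare. Of 155 called genes followed by name, 120 lost the call under at least 1 of 24 alternatives. These include stricter cut-offs (a fold of 1.5, limma treat, an adjusted p of 0.01), which can only remove calls. Losses there follow from the cut-off. The cause of the other changes was not tested.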
